A study of Mus musculus with 12 samples.

Results

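Prolyl hydroxylases and collagen chaperones are the proteins of the endoplasmic reticulum that modify and fold newly made procollagen chains. The 9 genes described here, P4ha1, P4ha2, P4ha3, P4hb, P3h1, Crtap, Ppib, Fkbp10 and Serpinh1, were chosen by name and matched to their Ensembl identifiers among the 49585 genes of the count table. RNA was sequenced from osteoblasts grown out of the calvariae of neonatal C57BL/6J mice, in 4 groups of 3 libraries: Bcl3-/- and WT cultures after 3 days, and Bcl3-/- and WT cultures after 1 day of osteogenic medium. The Bcl3-/- mice lack BCL3, a nuclear partner of the NF-κB p50 and p52 subunits. All 4 groups received ascorbic acid at 50 µg/mL and β-glycerophosphate at 2 mM, so no group without the prolyl hydroxylase cofactor ascorbate was compared. Each of the 6 cultures was made from 1 to 3 calvariae by the labels, and from 3 pooled calvariae by the study's methods, of pups of 3 to 5 days of age, and gave a library on both days.

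In GRCm38 the genes span separate places, P4ha1 at chr10:59323296-59373304 (plus strand), P4ha2 at chr11:54100095-54131665 (plus strand), P4ha3 at chr7:100285520-100319699 (plus strand), P4hb at chr11:120560298-120573253 (minus strand), P3h1 at chr4:119232915-119248975 (plus strand). The others are Crtap at chr9:114375134-114390675 (minus strand), Ppib at chr9:66060222-66066623 (plus strand), Fkbp10 at chr11:100415697-100424824 (plus strand) and Serpinh1 at chr7:99345376-99353239 (minus strand).

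Gene counts per library lay between 20009732 and 41953891, and all 9 genes passed the filter that left 16318 genes for testing. The osteoblast label was checked with 9 markers. Each of the 9 had reads in all libraries, in CPM, counts scaled to the library total. Col1a1, which fibroblasts also make, stood at 22628 to 49263 CPM over the 12 libraries and made up most of their summed level, which was 46348 to 49151 CPM in day 3 Bcl3-/-, 50057 to 52458 in day 3 WT, 41958 to 44280 in day 1 Bcl3-/- and 25564 to 37235 in day 1 WT libraries. The early osteoblast regulators Runx2 and Sp7 stood at 45.6 to 60.3 and 10.2 to 70.6 CPM. The late markers Bglap, at 0.14 to 3.92 CPM, and Dmp1, at 0.09 to 1.30 CPM, were low. Bglap2 stood at 0.27 to 7.55 CPM, Ibsp at 0.68 to 24.1 CPM, Alpl at 10.6 to 125 CPM and Spp1 at 1094 to 3799 CPM. Over time 3 of the 9 rose and 3 fell in Bcl3-/- cultures, and 3 rose and 2 fell in WT cultures. Between genotypes 3 of the 9 were called higher and 1 lower in Bcl3-/- libraries on each day. Bcl3 itself, the deleted gene, was counted at 10.2, 9.72 and 8.31 CPM in the day 3 libraries labelled Bcl3-/-, against 14.8, 15.9 and 12.8 CPM in day 3 WT libraries. On day 1 it stood at 17.5, 19.7 and 19.2 CPM in the libraries labelled Bcl3-/-, against 17.96, 21.8 and 17.8 CPM in WT libraries. The counts therefore did not separate the genotypes on day 1, where the log2 difference was -0.03 (SE 0.12, adjusted p = 0.89), and did so on day 3, at -0.62 (SE 0.12, adjusted p = 0.0081). Which part of Bcl3 the allele removes is not given in the sources used here, and Bcl3-/- below always means the libraries labelled Bcl3-/-.

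Fibrillar procollagen is made as chains that enter the endoplasmic reticulum, where proline and lysine residues are hydroxylated before 3 chains wind into a triple helix. Prolyl 4-hydroxylase, which needs ascorbate, iron, oxygen and 2-oxoglutarate, makes the 4-hydroxyproline that keeps the helix stable at body temperature. It is a tetramer of α subunits, encoded by P4ha1, P4ha2 or P4ha3, and β subunits, encoded by P4hb, which is also protein disulfide isomerase. A second complex of P3h1, Crtap and Ppib modifies single prolines of the type I collagen chains and turns prolyl bonds, and Fkbp10 and Serpinh1 (HSP47) are chaperones that assist folding. In humans, loss of CRTAP, P3H1, PPIB, FKBP10 or SERPINH1 causes recessive forms of osteogenesis imperfecta, the brittle bone disease.

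The sequence upstream of the transcription start is shown for 4 genes: the 3 subunits of the prolyl 3-hydroxylation complex, whose levels are compared with each other below, and Serpinh1, the gene with the highest level. Each is the 250 bases before a start site in RefSeq's GRCm38.p6 annotation, written 5′ to 3′ on the gene's strand. Capitals mark the GC box GGGCGG, the CCAAT box CCAAT and the TATA box TATAAA on either strand, so that CCGCCC and ATTGG are the same boxes read from the other strand.
Crtap (chr9:114390713-114390962, minus strand): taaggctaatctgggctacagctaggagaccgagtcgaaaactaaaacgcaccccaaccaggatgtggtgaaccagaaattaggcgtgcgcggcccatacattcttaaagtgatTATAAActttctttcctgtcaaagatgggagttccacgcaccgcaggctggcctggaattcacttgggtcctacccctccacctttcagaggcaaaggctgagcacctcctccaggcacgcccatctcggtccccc
P3h1 (chr4:119232665-119232914, plus strand): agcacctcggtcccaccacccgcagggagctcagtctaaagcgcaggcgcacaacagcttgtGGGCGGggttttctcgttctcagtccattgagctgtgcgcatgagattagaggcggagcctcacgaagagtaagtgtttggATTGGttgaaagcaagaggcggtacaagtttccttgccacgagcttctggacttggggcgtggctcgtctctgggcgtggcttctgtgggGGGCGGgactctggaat
Ppib (chr9:66059919-66060168, plus strand): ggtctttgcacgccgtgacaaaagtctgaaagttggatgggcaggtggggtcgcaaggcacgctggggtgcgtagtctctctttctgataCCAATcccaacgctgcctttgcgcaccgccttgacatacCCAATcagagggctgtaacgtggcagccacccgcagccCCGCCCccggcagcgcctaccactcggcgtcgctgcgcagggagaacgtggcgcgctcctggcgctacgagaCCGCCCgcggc
Serpinh1 (chr7:99353240-99353489, minus strand): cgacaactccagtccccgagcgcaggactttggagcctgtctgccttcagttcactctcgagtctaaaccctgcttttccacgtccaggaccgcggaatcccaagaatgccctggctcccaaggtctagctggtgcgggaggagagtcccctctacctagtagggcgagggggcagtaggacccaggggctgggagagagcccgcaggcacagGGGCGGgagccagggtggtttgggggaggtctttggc

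The Crtap stretch held a TATAAA at -136 from the start and no GC box, while its GC box lay at 22 bases past the start. Ppib carried CCAAT at -160 and -121 and GC boxes at -83 and -11. P3h1 carried a reversed CCAAT at -107 and GC boxes at -188 and -17, and Serpinh1 a GC box at -37. RefSeq held promoter windows of 250 bases before to 50 bases after a start for 8 of the 9 genes, 9 windows in all since P3h1 has 2 starts. Searched on both strands, GGGCGG was found in 9 of the 9 windows and in 35.7% of all 32851 mouse windows. CCAAT was found in 4 of 9 against 37.4% of all windows, and TATAAA in 2 of 9, Crtap and P4ha1, against 13.6%. The cores ACGTG and GCGTG, which hypoxia-inducible factors read, were each in 6 of 9 windows, against 19.6% and 32.4% of all windows. The ER stress half-site CCACG, which can overlap these cores, was in 8 of 9, against 32.8%. The heat shock repeat GAANNTTC was in 0 of 9 windows and TTCNNGAA in 1, that of P4ha2, against 7.86% and 8.52% of all windows. The κB consensus had 1 match, at -110 in the Serpinh1 window, and was in 4.51% of all windows. The upstream stretches shown or searched were 53.6 to 70.0% G and C, against a median of 52.4% over all windows. The GC box, both hypoxia cores and the ER stress half-site each contain the letters CG. These stretches held CG 9 to 25 times, against a median of 6 over all windows. Whether such motifs were more frequent here than in windows equally rich in CG was not tested, and any match describes letters only.

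Levels of different genes were compared as the deposited FPKM, which divides by transcript length. Serpinh1, the collagen-specific chaperone of the serpin family, had the highest level of the 9, with a mean of 2193 FPKM over the 12 libraries and rank 13 of the 34735 genes listed above 0. These ranks carry a limit: Col1a1 is listed at 0 FPKM in 10 of the 12 libraries. In addition, 49 genes with several FPKM values were left out. P4hb followed at 667 FPKM (rank 85), then Fkbp10 at 278, Ppib at 151, Crtap at 140.2, P4ha3 at 103, P4ha1 at 66.1, P4ha2 at 59.4 and P3h1 at 42.0 FPKM. P3h1, the catalytic subunit of its complex, was thus the lowest of the 9. The ratio of the highest to the lowest library was 2.07 for Ppib and 1.74 for Crtap. For the others it ran from 1.22 for P4hb to 1.33 for P4ha2. FPKM of Ppib and Fkbp10, and their counts, carry a limit: 825 bases of Ppib exons overlap Snx22 and 193 bases of Fkbp10 exons overlap Nt5c3b on the opposite strand, and the library kit does not mark strand.

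**Figure D1:**
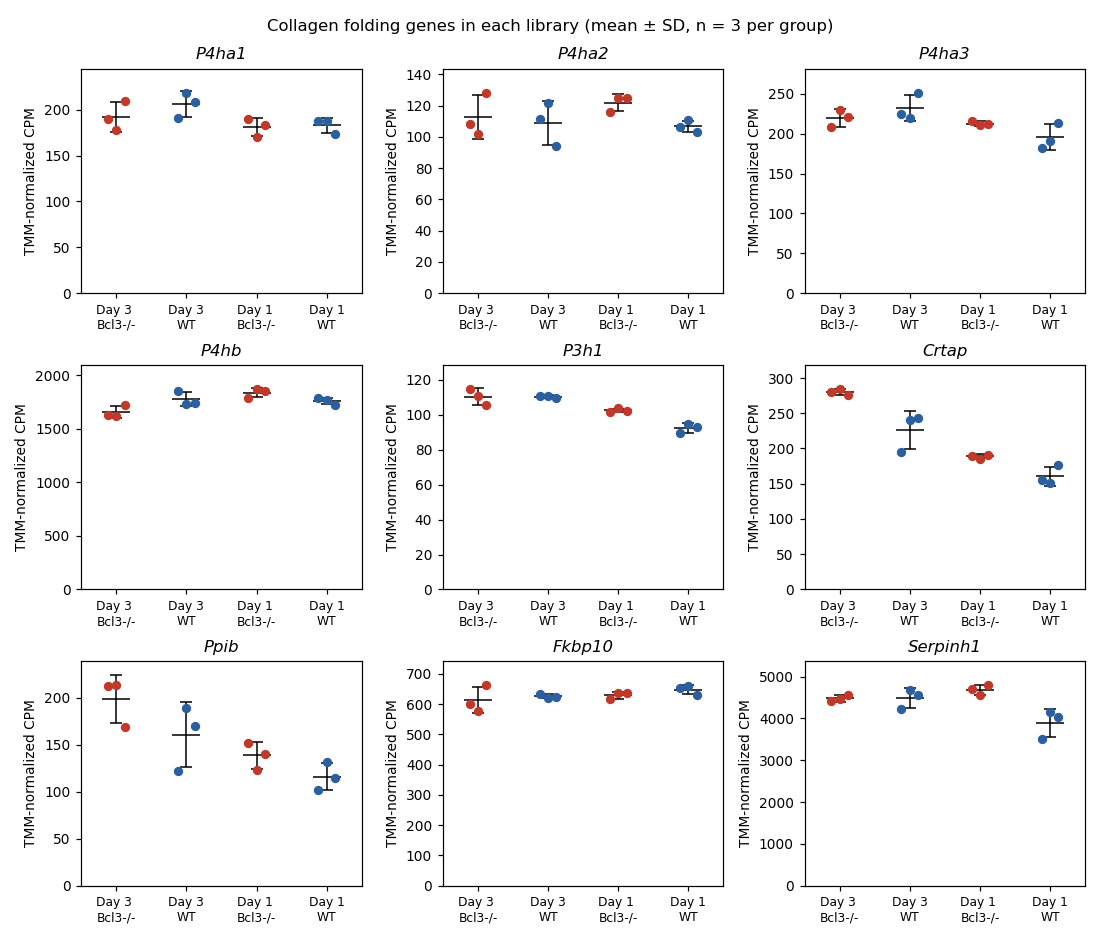
TMM-normalized CPM of each of the 9 genes, with 1 point per library (red, libraries labelled Bcl3-/-; blue, WT) and the mean ± SD of the 3 libraries of each group. Crtap separates day 3 Bcl3-/- libraries (275 to 285 CPM) from all others, while Fkbp10 lies between 578 and 663 CPM in every library.

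Few of the 9 genes were called between genotypes and more between days, which was also so over all genes. Of all genes 15.4% were called in either direction between genotypes on day 1 and 10.4% on day 3. Over time 33.3% were called in Bcl3-/- and 38.5% in WT cultures. Whether the counts of the 9 genes differ from the shares over all genes was not tested. Comparisons used edgeR's quasi-likelihood test with Benjamini-Hochberg adjustment over 16318 genes, and a gene was called at an adjusted p under 0.05. On day 1, 1 of 9 genes was called higher in the libraries labelled Bcl3-/- (Serpinh1) and 0 lower, where 9.02% of all genes were called higher and 6.36% lower. On day 3, 1 of 9 was called higher (Crtap) and 0 lower, against 4.78% and 5.66% of all genes. A count of 1 in 9 is near these shares, so the genotype counts do not set the 9 genes apart. From day 1 to day 3, 2 of 9 were called higher in Bcl3-/- cultures (Crtap and Ppib) and 0 lower, against 16.2% and 17.1% of all genes. In WT cultures 5 of 9 were called higher over the same days (Crtap, P3h1, P4ha3, Ppib and Serpinh1) and 0 lower, against 20.6% and 17.9% of all genes. These comparisons share libraries in pairs and are not independent of each other. Where libraries of 2 groups are said below not to overlap, this was common among all genes. On day 1, 19.4% of all genes lay wholly higher and 18.9% wholly lower in Bcl3-/- libraries, and on day 3, 13.1% and 15.6%. From day 1 to day 3, 23.3% lay wholly higher and 23.9% wholly lower in Bcl3-/- cultures, and 25.1% and 23.7% in WT cultures. The change over time was not called different between genotypes for any of the 9 genes by edgeR (genotype by time), where 0.153% of all genes were called higher and 0.766% lower. At an unadjusted p under 0.05 this comparison held 1 gene, Serpinh1, and DESeq2 also called 0. The median log2 fold change of the 9 genes was 0.15 on day 1, near 0 on day 3, 0.05 over time in Bcl3-/- and 0.20 over time in WT cultures, with medians over all genes within 0.01 of 0.

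**Figure D2:**
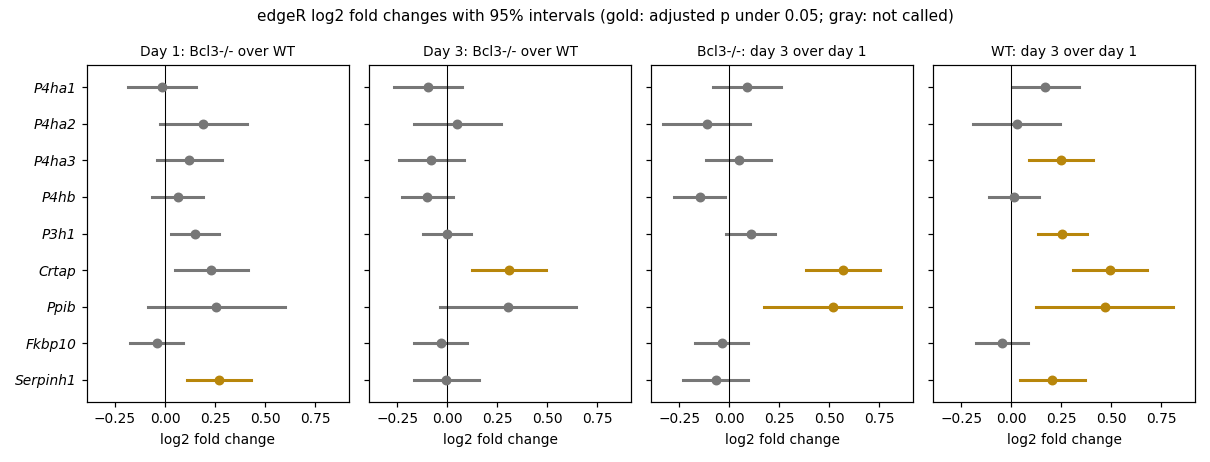
Log2 fold changes of the 9 genes from the edgeR fit, with 95% intervals, in 4 panels: Bcl3-/- over WT on day 1 and on day 3, and day 3 over day 1 in Bcl3-/- and in WT cultures (gold, called at adjusted p under 0.05; gray, not called). Crtap and Ppib are called over time in both genotypes, and no point lies past 0.57.

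Of the 4 genes for prolyl 4-hydroxylase subunits, 0 were called between genotypes by edgeR, as by DESeq2, with 0 at an unadjusted p under 0.05, and 1 was called over time, in WT cultures. P4ha1, the α subunit that most cell types express, had 190.3, 178 and 210.0 CPM in day 3 Bcl3-/- libraries, against 191, 219 and 208 CPM in day 3 WT libraries. The day 1 levels were 189.6, 170.4 and 183 CPM in Bcl3-/- libraries and 188, 188 and 173 CPM in WT libraries. The genotypes overlapped on both days, with 95% intervals of the log2 difference of -0.18 to 0.15 on day 1 and -0.27 to 0.07 on day 3. Over time in WT cultures the P4ha1 libraries did not overlap, at a log2 fold change of 0.17 (SE 0.08, adjusted p = 0.10), which was not called.

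P4ha2, the α subunit known from cartilage and bone, had 108, 102 and 128 CPM in day 3 Bcl3-/- and 111, 121 and 94.0 CPM in day 3 WT libraries. On day 1 its Bcl3-/- libraries, at 116, 125 and 125 CPM, all lay above the WT libraries, at 106, 111 and 103 CPM. The log2 difference on day 1 was 0.19 (SE 0.10, adjusted p = 0.24) and was not called, while the fit of the 6 day 1 libraries alone called it.

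P4ha3, the third of the α subunits, had 208, 230.2 and 221 CPM in day 3 Bcl3-/- and 225, 220.0 and 251 CPM in day 3 WT libraries, and 215, 210.3 and 212 CPM in day 1 Bcl3-/- and 182, 191 and 214 CPM in day 1 WT libraries. Only the day 1 WT libraries held values under 208 CPM. Over time its log2 fold change was 0.05 (SE 0.07, adjusted p = 0.66) in Bcl3-/- cultures, and in WT cultures it rose by 0.25 (SE 0.07, adjusted p = 0.019). The difference between these changes was -0.20 (interval -0.43 to 0.03) and was not called. The WT call was lost in the FPKM values and without day 3 WT library 3, day 1 WT library 1 or day 1 WT library 2.

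By FPKM, P4ha3 made up the largest share of the α subunit RNA in every group. It held 45.2% ± 2.0 of the summed P4ha1, P4ha2 and P4ha3 FPKM in day 3 Bcl3-/-, 46.3% ± 4.0 in day 3 WT, 44.5% ± 0.66 in day 1 Bcl3-/- and 43.8% ± 2.7 in day 1 WT libraries (SD, n = 3 each). P4ha1 held 27.5 to 29.8% and P4ha2 24.0 to 27.9% as group means. The mix of α subunits was therefore close to the same in all 4 groups, and these shares were not tested.

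P4hb, the β subunit and disulfide isomerase, had 1628, 1623 and 1725 CPM in day 3 Bcl3-/- libraries, all below the 1856, 1733 and 1742 CPM of day 3 WT libraries. On day 1 the order was the other way, with 1789, 1872 and 1853 CPM in Bcl3-/- libraries, all above the 1788, 1764 and 1726 CPM of WT libraries. Neither difference was called, at -0.10 (SE 0.06, adjusted p = 0.31) on day 3 and 0.06 (SE 0.06, adjusted p = 0.53) on day 1. From day 1 to day 3 the P4hb level differed by -0.15 (SE 0.06, adjusted p = 0.068) in Bcl3-/- cultures and by 0.01 (SE 0.06, adjusted p = 0.88) in WT cultures. The first of these was not called by edgeR and was called by DESeq2, in the FPKM values, with library depth as a covariate and without day 3 Bcl3-/- library 3. Set against the α subunits, P4hb FPKM was 2.85, 2.77 and 2.63 times the summed α FPKM in day 3 Bcl3-/- libraries and 2.92, 2.75 and 2.70 times in day 3 WT libraries. The same ratio was 3.01, 3.09 and 3.04 in day 1 Bcl3-/- and 3.17, 3.17 and 3.02 in day 1 WT libraries, so that the 6 day 3 libraries lay below the 6 day 1 libraries.

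In the prolyl 3-hydroxylation complex, Crtap and Ppib were called higher on day 3 than on day 1 in both genotypes. Crtap, the helper subunit that stabilizes P3h1, had 281, 285 and 275 CPM in day 3 Bcl3-/- libraries, against 196, 240.1 and 243 CPM in day 3 WT libraries. On day 1 it had 190.0, 185 and 191 CPM in Bcl3-/- libraries, against 155, 151 and 176 CPM in WT libraries. No day 3 library of either genotype fell below any day 1 library, and on each day the Bcl3-/- libraries lay above the WT libraries.

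Crtap rose with time 1.48-fold in Bcl3-/- cultures, a log2 fold change of 0.57 (SE 0.08, adjusted p = 3.6e-04). In WT cultures it rose 1.41-fold, or 0.49 (SE 0.08, adjusted p = 6.5e-04). Both calls held in each of the 22 other settings tried, with adjusted p no higher than 0.0046 and 0.0084. The difference between the 2 changes was 0.08 on the log2 scale, with a 95% interval of -0.18 to 0.34, and was not called.

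Between genotypes Crtap was 1.24-fold higher in Bcl3-/- libraries on day 3, at 0.31 (SE 0.08, adjusted p = 0.036). This call was lost in 11 of the 22 other settings, with adjusted p between 0.013 and 0.13: among the 6 day 3 libraries alone, in the FPKM values, and without any 1 of the 3 day 3 Bcl3-/- libraries, the 3 day 1 Bcl3-/- libraries or day 3 WT library 1. Without that WT library, the lowest of its group and the one with the fewest counts in it, the log2 difference was 0.22. In 3 of 4 groups the library with the fewest counts had the lowest Crtap level. With the log2 library total as a covariate the day 3 call was kept. On day 1 the difference was 0.23 (SE 0.08, adjusted p = 0.087) and was not called, except among the 6 day 1 libraries alone and without day 3 WT library 1 or day 1 WT library 3. The order of the group means was day 3 Bcl3-/- (280.3 ± 4.6 CPM), day 3 WT (226 ± 27), day 1 Bcl3-/- (189 ± 3.0) and day 1 WT (161 ± 14; SD, n = 3 each), and only the first pair of neighbors in this order was called.

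The study sets day 1 Bcl3-/- cultures beside day 3 WT cultures. For Crtap the log2 difference between these was -0.26 (SE 0.08, adjusted p = 0.058), lower in day 1 Bcl3-/- libraries and not called. Of the 9 genes, 0 were called in this comparison by edgeR, 2 had an unadjusted p under 0.05 (Crtap and P4ha1) and DESeq2 called 1 (Crtap), against 7.35% of all genes called higher and 7.29% lower. Crtap was also called with the CPM filter, and without day 3 WT library 1.

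Ppib, cyclophilin B, the prolyl isomerase of the complex, had 213, 214 and 169 CPM in day 3 Bcl3-/- and 123, 189.8 and 170.2 CPM in day 3 WT libraries. It had 152, 123 and 141 CPM in day 1 Bcl3-/- and 102, 131 and 115 CPM in day 1 WT libraries. The group means stood in the same order as those of Crtap, with wider spread, and the genotypes overlapped on both days. Ppib rose with time by 0.52 (SE 0.16, adjusted p = 0.025) in Bcl3-/- and by 0.47 (SE 0.16, adjusted p = 0.034) in WT cultures. The Bcl3-/- call was lost in 8 of the 22 other settings: without a count filter, in the FPKM values, and without day 3 Bcl3-/- libraries 1 or 2 or day 1 Bcl3-/- libraries 2 or 3. The WT call was lost in 12: without a count filter, in the FPKM values, in the 6 WT libraries alone, and without day 3 WT libraries 2 or 3, day 1 WT libraries 1 or 3, or any day 1 Bcl3-/- library. The genotype difference was 0.30 (SE 0.16, adjusted p = 0.24) on day 3 and 0.25 (SE 0.16, adjusted p = 0.32) on day 1, and was not called on either day. In 4 of 4 groups the library with the fewest counts had the lowest Ppib level and the highest P4hb level. With the log2 library total as a covariate, chosen after seeing this, Ppib was also called higher in Bcl3-/- libraries on day 3, at a log2 difference of 0.45. The part of depth in these values was otherwise not tested.

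P3h1, which carries the hydroxylase activity, had smaller fold changes than its partners over time, a difference that was not tested. It had 115, 111 and 106 CPM in day 3 Bcl3-/- libraries, against 111, 111 and 109.7 CPM in day 3 WT libraries. The day 1 levels were 102, 104 and 103 CPM in Bcl3-/- libraries, against 89.5, 94.9 and 93.2 CPM in WT libraries, with no overlap. The log2 difference was 0.15 (SE 0.06, adjusted p = 0.094) on day 1, which edgeR did not call and DESeq2 did, and its interval on day 3 was -0.12 to 0.12. Its log2 fold change over time was 0.11 (SE 0.06, adjusted p = 0.16) in Bcl3-/- cultures, and it rose by 0.26 (SE 0.06, adjusted p = 0.0031) in WT cultures, a call lost only in the 3 fits of FPKM values.

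The proportions within the complex were also set side by side. Crtap FPKM was 3.85, 4.16 and 4.52 times P3h1 FPKM in day 3 Bcl3-/- libraries, against 2.93, 3.35 and 3.57 times in day 3 WT libraries. On day 1 it was 3.24, 3.03 and 2.87 times in Bcl3-/- and 3.01, 2.53 and 2.99 times in WT libraries. The day 3 Bcl3-/- libraries stood above the other 9, which overlapped between groups. The ratio of Ppib to Crtap FPKM had group means of 1.07 to 1.08 in all 4 groups, with single libraries between 0.88 and 1.27. These ratios are descriptions and were not tested.

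Fkbp10 (FKBP65), a prolyl isomerase that binds procollagen, was the flattest of the chaperones. It had 599, 578 and 663 CPM in day 3 Bcl3-/- and 635, 621 and 625 CPM in day 3 WT libraries. On day 1 it had 617, 635 and 637 CPM in Bcl3-/- and 653, 659 and 631 CPM in WT libraries. Its genotype difference had 95% intervals of -0.17 to 0.09 on day 1 and -0.16 to 0.10 on day 3 on the log2 scale. Over time the intervals were -0.17 to 0.09 in Bcl3-/- and -0.18 to 0.09 in WT cultures, and no comparison called it.

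Serpinh1, which binds the folded triple helix, had 4409, 4454 and 4563 CPM in day 3 Bcl3-/- libraries, against 4219.5, 4677 and 4561 CPM in day 3 WT libraries. On day 1 it had 4714, 4560.2 and 4794 CPM in Bcl3-/- libraries, against 3499.9, 4142 and 4032 CPM in WT libraries. The 3 day 1 WT libraries held the lowest values of the 12, and the other groups overlapped with each other. On day 1 Serpinh1 was 1.20-fold higher in Bcl3-/- libraries, at 0.27 (SE 0.07, adjusted p = 0.028), and on day 3 the interval of the difference was -0.16 to 0.16.

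The day 1 call of Serpinh1 was lost in 8 of 22 other settings, with adjusted p between 0.0051 and 0.16: in the FPKM values and without any 1 of the day 1 Bcl3-/- libraries or day 1 WT libraries 1 or 2. Without day 1 WT library 1, the lowest of the 12 and the one with the fewest counts in its group, the log2 difference was 0.19. In 3 of 4 groups the library with the fewest counts had the lowest Serpinh1 level, and in 1 the highest. With the log2 library total as a covariate the day 1 call was kept. Over time the Serpinh1 change was -0.07 (SE 0.07, adjusted p = 0.52) in Bcl3-/- cultures, and it rose by 0.20 (SE 0.07, adjusted p = 0.045) in WT cultures. The WT call was lost in 14 of 22 other settings, which included leaving out any 1 of the 6 day 1 libraries, day 3 WT libraries 2 or 3, or day 3 Bcl3-/- libraries 1 or 2, and without day 1 WT library 1 the log2 change was 0.11. The difference between the 2 changes was -0.27 (SE 0.11, adjusted p = 0.30) and was not called. In bulk RNA a lower level can come from fewer cells of a type or from less RNA per cell, and these cannot be told apart.

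A list of 9 fibrillar collagen genes had larger median fold changes between genotypes and over time than the folding genes, a difference that was not tested. Col2a1, also a fibrillar collagen, was counted with the chondrocyte markers and is not in this list. Its mean level was lower in Bcl3-/- libraries on both days, with wide spread. It was 191 ± 19 CPM against 715 ± 564 on day 3, and 751 ± 138 against 1565 ± 851 on day 1 (SD, n = 3 each). Of the 9 listed genes, clients of this machinery, 6 were higher in Bcl3-/- libraries on day 1 and 0 lower, with a median log2 difference of 0.70 over the list, against 0.15 over the 9 folding genes. The smallest adjusted p values belonged to Col11a1, at 0.71 (SE 0.08, adjusted p = 4.9e-04), Col27a1, at 0.96 (SE 0.12, adjusted p = 9.3e-04), and Col24a1, at 1.21 (SE 0.17, adjusted p = 0.0014). On day 3, 2 of 9 were higher and 0 lower, Col27a1 (0.69, SE 0.12, adjusted p = 0.0047) and Col24a1 (0.81, SE 0.17, adjusted p = 0.0096). Over time 5 of 9 collagens rose and 1 fell in Bcl3-/- cultures (median 0.49), and 7 rose and 1 fell in WT cultures (median 0.75). Col5a1, a chain of type V collagen, fell by a log2 of 0.38 (SE 0.10, adjusted p = 0.011) in Bcl3-/- and 0.31 (SE 0.10, adjusted p = 0.027) in WT cultures. Col1a2, the α2 chain of type I collagen, rose by 0.60 (SE 0.13, adjusted p = 0.0047) in Bcl3-/- and by 1.08 (SE 0.13, adjusted p = 7.1e-05) in WT cultures.

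Set against Serpinh1, the counts of Col1a2 were 5.75, 5.49 and 6.71 times those of Serpinh1 in day 3 Bcl3-/- and 5.02, 4.99 and 5.34 times in day 3 WT libraries. On day 1 the ratio was 3.64, 3.96 and 3.74 in Bcl3-/- and 2.44, 2.68 and 3.21 in WT libraries, so that the 4 groups did not overlap. The ratio of Col1a1, the α1 chain, to Serpinh1 was 10.8, 10.1 and 10.1 in day 3 Bcl3-/-, 11.1, 9.87 and 10.8 in day 3 WT, 8.17, 8.71 and 8.42 in day 1 Bcl3-/- and 6.47, 7.16 and 8.25 in day 1 WT libraries. It separated the days and not the genotypes. Col3a1, the type III chain, stood at 3.59, 3.98 and 4.35 times Serpinh1 in day 3 Bcl3-/-, 3.06, 2.79 and 3.09 in day 3 WT, 2.32, 2.97 and 2.55 in day 1 Bcl3-/- and 1.15, 1.18 and 1.78 in day 1 WT libraries. Counts were used for these ratios because Col1a1 is listed at 0 FPKM in 10 of the 12 libraries. They follow each pair of genes across libraries and are not a ratio of molecules, since longer transcripts give more reads.

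**Figure D3:**
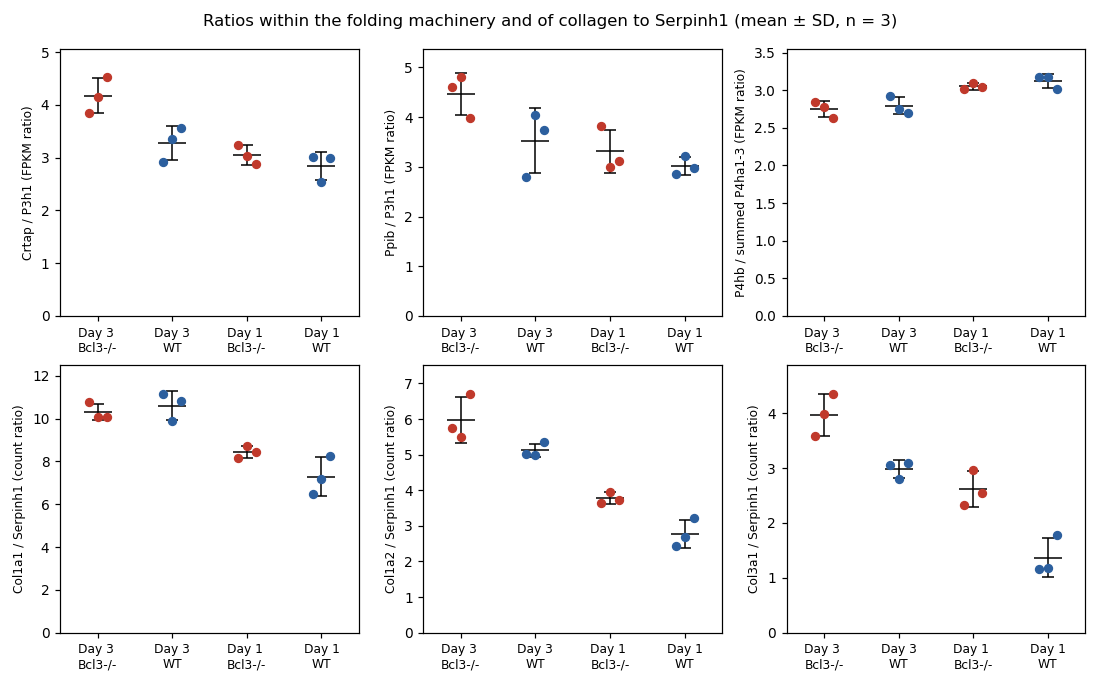
Ratios within each library (red, libraries labelled Bcl3-/-; blue, WT), with the mean ± SD of 3 libraries per group: FPKM ratios of Crtap and of Ppib to P3h1 and of P4hb to the summed α subunits in the upper row, and count ratios of Col1a1, Col1a2 and Col3a1 to Serpinh1 in the lower row. The Col1a2 ratio averages 5.98 in day 3 Bcl3-/-, 5.12 in day 3 WT, 3.78 in day 1 Bcl3-/- and 2.78 in day 1 WT libraries.

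The remaining steps of collagen making and the general folding machinery were set beside the 9 genes. Of 8 other collagen-modifying enzymes, which add hydroxyl groups and sugars, 2 were higher and 1 lower in Bcl3-/- libraries on each day. P3h3, a paralog of P3h1, was higher on both days, by 0.42 (SE 0.10, adjusted p = 0.014) on day 1 and 0.42 (SE 0.10, adjusted p = 0.02) on day 3. The lysyl hydroxylase gene Plod2 was lower on day 1 (-0.44, SE 0.12, adjusted p = 0.022) and its paralog Plod3 on day 3 (-0.29, SE 0.08, adjusted p = 0.04). Over time 5 rose and 1 fell in Bcl3-/- and 4 rose and 1 fell in WT cultures. P3h3 rose by a log2 of 0.80 in Bcl3-/- and 0.80 in WT cultures, and Plod3 fell by 0.69 and 0.46. P3h1 thus moved by less than its paralog, a difference that was not tested.

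Of 6 other prolyl isomerases of the endoplasmic reticulum, 4 rose over time in each genotype and 0 fell: Fkbp7, Fkbp9, Fkbp14 and Ppic. Ppic, cyclophilin C, rose by 0.85 (SE 0.11, adjusted p = 1.5e-04) in Bcl3-/- and 0.65 (SE 0.11, adjusted p = 6.1e-04) in WT cultures, and was the one isomerase of this list called higher in Bcl3-/- libraries on day 3 (0.47, SE 0.11, adjusted p = 0.019). On day 1 that was Fkbp9 (0.26, SE 0.07, adjusted p = 0.023). Of 14 genes for procollagen export, 4 rose in Bcl3-/- and 5 in WT cultures and 0 fell, with Sec31a, a coat protein of transport vesicles, at 0.24 and 0.41. On day 3, 1 of 14 was called higher in Bcl3-/- libraries, Tmem38b (0.35, SE 0.09, adjusted p = 0.027), a potassium channel of the endoplasmic reticulum whose loss in humans also causes brittle bones.

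Of 7 genes for procollagen trimming, 2 were higher and 1 lower in Bcl3-/- libraries on each day. Adamts2, which removes the amino propeptide, was higher by 1.21 (SE 0.15, adjusted p = 8.5e-04) on day 1 and 0.61 (SE 0.15, adjusted p = 0.021) on day 3. Pcolce, an enhancer of carboxyl propeptide removal, was higher by 0.60 (SE 0.11, adjusted p = 0.0033) and 0.44 (SE 0.10, adjusted p = 0.021). The lower ones were Pcolce2 on day 1 (-0.65, SE 0.17, adjusted p = 0.024) and Adamts14 on day 3 (-0.62, SE 0.17, adjusted p = 0.035). Over time 3 rose and 1 fell in Bcl3-/- and 4 rose and 1 fell in WT cultures, and the gene that fell was Pcolce2 in both. Over the whole list the median log2 difference between genotypes was 0.18 on day 1 and 0.09 on day 3. The medians of the 9 folding genes were 0.15 and -0.003. On each day 4 of the 7 trimming genes were not called. The named genes were picked by their adjusted p, so their sizes do not compare the 2 lists.

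A list of general chaperones of the endoplasmic reticulum went the other way over time. It also held genes that are not chaperones, such as the transcription factor Xbp1 and the oxidases Ero1a and Ero1b. Of its 16 genes, 15 fell in Bcl3-/- and 13 in WT cultures and 0 rose, with median log2 fold changes of -0.45 and -0.35. Hspa5 (BiP), the main Hsp70 of this compartment, fell by 0.66 (SE 0.07, adjusted p = 2.7e-05) in Bcl3-/- and by 0.51 (SE 0.07, adjusted p = 1.3e-04) in WT cultures, and Hyou1, a chaperone of the Hsp70 family, fell by 0.96 (SE 0.10, adjusted p = 3.9e-05) and 0.91 (SE 0.10, adjusted p = 4.0e-05). On day 3, 6 of 16 were lower in Bcl3-/- libraries and 0 higher, led by Hsp90b1 (-0.28, SE 0.06, adjusted p = 0.013), Canx (-0.31, SE 0.07, adjusted p = 0.015) and Dnajb11 (-0.23, SE 0.06, adjusted p = 0.022), and on day 1 Hyou1 alone was lower (-0.34, SE 0.10, adjusted p = 0.042). Of the 9 collagen folding genes, 0 were called lower over time by edgeR in either genotype. P4hb had the most negative log2 fold change of them over time in Bcl3-/- cultures, at -0.15, which DESeq2 called. In WT cultures the P4hb change was 0.01.

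Of 9 heat shock genes, 7 fell over time in Bcl3-/- and 6 in WT cultures and 0 rose, while Serpinh1, itself a heat shock protein, was not among those that fell. Hspd1, the mitochondrial chaperonin, fell by 0.65 (SE 0.08, adjusted p = 6.4e-05) in Bcl3-/- and 0.82 (SE 0.08, adjusted p = 1.1e-05) in WT cultures, and was the one heat shock gene called between genotypes, lower on day 1 (-0.26, SE 0.08, adjusted p = 0.034). Of 12 hypoxia response genes, 4 rose and 2 fell over time in Bcl3-/- and 4 rose and 3 fell in WT cultures. Pdk1, a kinase that restrains pyruvate oxidation, rose by 1.23 and 1.68, while Slc2a1, the glucose transporter, fell by 0.77 and 0.32. P4ha1 and P4ha2, known targets of hypoxia-inducible factors, were not called over time in either genotype by edgeR or DESeq2. Between genotypes 3 hypoxia genes were higher and 0 lower in Bcl3-/- libraries on day 1, led by Ndrg1 (0.66), Pdk1 (0.77) and Bnip3 (0.64), and on day 3 Ndrg1 was higher and Slc2a1 lower. Of the ascorbate transporter genes, 2 of 3 were tested, and Slc23a2 rose over time in Bcl3-/- cultures (0.37, SE 0.10, adjusted p = 0.015).

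**Figure D4:**
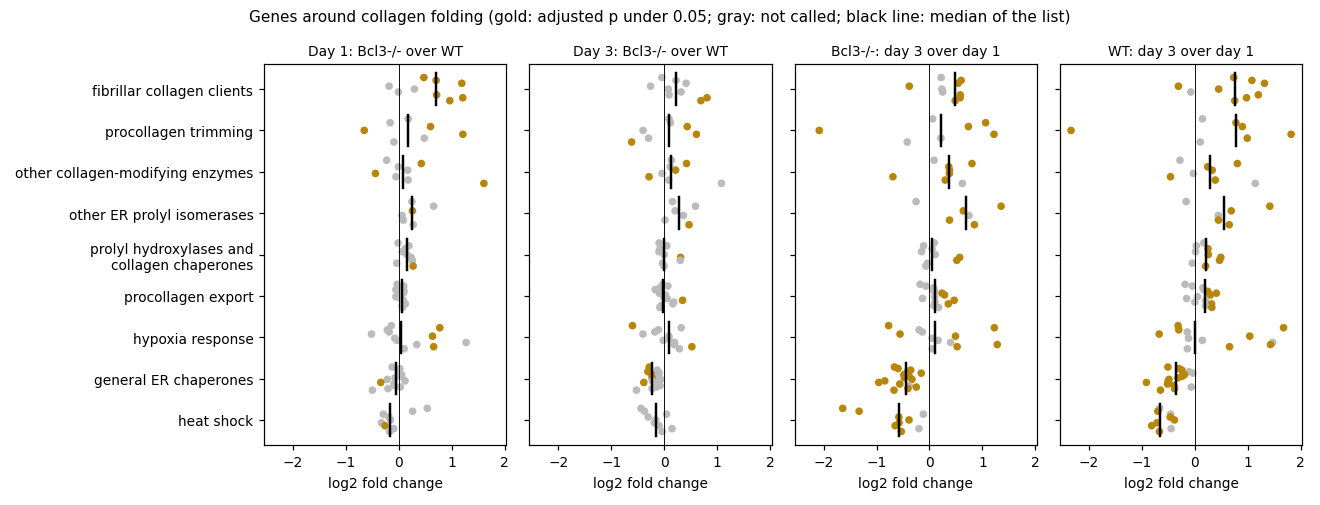
Log2 fold changes of single genes (points; gold, called at adjusted p under 0.05; gray, not called) in 9 lists, with the median of each list as a black line, for Bcl3-/- over WT on day 1 and day 3 and for day 3 over day 1 in Bcl3-/- and WT cultures. The collagen folding genes keep within 0.57 of 0. Their medians over time lie between those of the collagens, 0.49 and 0.75, and those of the general chaperone list, -0.45 and -0.35. That list also holds Xbp1, Ero1a and Ero1b.

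Markers of other cells moved with the days and, in part, with the genotypes. The summed level of 7 fibroblast and tendon markers was 937 to 1079 CPM in day 3 Bcl3-/-, 473 to 743 in day 3 WT, 329.6 to 389.7 in day 1 Bcl3-/- and 190.1 to 271 in day 1 WT libraries, the same order of groups as for Crtap and Ppib and for the osteoclast sum below. Of these markers 5 rose over time in Bcl3-/- and 6 in WT cultures, 4 were higher and 1 lower in Bcl3-/- libraries on day 1, and 3 were higher and 1 lower on day 3. Tnmd made up most of the sum, at 724 to 846, 314 to 541, 222 to 273 and 109 to 180 CPM in these groups. Scx had lower means in Bcl3-/- libraries on both days, at 28.6 against 42.9 CPM on day 3 and 17.5 against 28.1 on day 1. The summed level of 10 macrophage markers was 466 to 907 CPM in day 3 Bcl3-/-, 732 to 1109.7 in day 3 WT, 359.7 to 391 in day 1 Bcl3-/- and 313 to 500.0 in day 1 WT libraries, with 8 of 10 called higher over time in each genotype. Of 6 osteoclast markers, 5 passed the filter and were summed. Their sum was 397.7 to 422 CPM in day 3 Bcl3-/- and 261 to 357.5 in day 3 WT libraries. On day 1 it was 184 to 213 in Bcl3-/- and 133 to 167 in WT libraries. Ctsk, a collagenolytic protease, made up most of this sum, at 377 to 396 CPM in day 3 Bcl3-/-, 244 to 334 in day 3 WT, 175 to 205 in day 1 Bcl3-/- and 126 to 159.8 in day 1 WT libraries, and each other osteoclast marker tested stood at or below 20.2 CPM. Of the 5 tested, 3 rose over time in each genotype and 1, Dcstamp, fell in Bcl3-/- cultures. Between genotypes, 1 (Ctsk) was higher in Bcl3-/- libraries on day 1. Smooth muscle markers summed to 1814 to 2063 CPM in day 3 Bcl3-/-, 2404 to 2831 in day 3 WT, 2490.4 to 2615 in day 1 Bcl3-/- and 2838 to 3117 in day 1 WT libraries. Markers of skeletal muscle, endothelium and adipocytes stayed at or below 32.1, 21.2 and 3.92 CPM in sum, and those of chondrocytes lay between 330.3 and 2465 CPM. These sums cover only markers that passed the filter: 6 of 7, 4 of 5, 1 of 5 and, for chondrocytes, 5 of 6. The part of other cells in the Crtap, Ppib and Serpinh1 differences was not tested.

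Likeness of pattern was measured as Pearson's r of log2 CPM over the 12 libraries, among all 16318 genes and as a description, since the libraries fall into 4 groups and share 6 cultures and their depths. The genes most like Crtap were Fuca1 (0.993), a lysosomal fucosidase, and Gnas (0.992), which encodes the stimulatory G protein α subunit. Those most like Ppib were Paip2 (0.993), an inhibitor of translation, and Unc50 (0.986). For P3h1 they were the immunoproteasome gene Psmb10 (0.970) and Nmi (0.964), which is induced by interferon. None of these neighbors was another of the 9 genes, and the nearest genes of P4ha1, P4ha2, P4ha3, P4hb and Fkbp10 had r between 0.821 and 0.933.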

How the data were processed

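RNA of 12 libraries from calvarial osteoblast cultures was measured. The deposited counts are whole reads per gene that the authors obtained by trimming with Trim Galore, aligning to GRCm38 (mm10) with TopHat2 and counting with HTSeq. The deposited FPKM values were estimated by the authors with Cufflinks and correct for transcript length and depth. Tool versions and the strand setting of HTSeq are not given in the sources used here. Entries for reads outside genes (12.3 to 14.7% per library) were left out. FPKM of 49318 genes were used, without 49 genes that had several values in a library and 1 stray header.

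Genes passing edgeR's filterByExpr (16318) were normalized by TMM, with factors of 0.951 to 1.05. One quasi-likelihood fit over all 4 groups gave every comparison, with Benjamini-Hochberg adjustment over all genes tested. CPM values are TMM-normalized, and log2 CPM used a prior count of 2. The fit was tested on simulated data. P-values measure the spread between libraries within groups, where each library of a group is from its own culture. The main fit did not pair the days of a culture.

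The 9 genes and the lists beside them were chosen with earlier results of these data known. Named genes are the 9 members, Bcl3, up to 3 genes per list and comparison with the smallest adjusted p with any called the other way, and the 2 nearest patterns of a member. Culture codes pair the days. Deviations of paired libraries correlated at 0.24 to 0.33 over time in WT and at -0.16 to -0.02 in Bcl3-/- cultures. A replicate block was an alternative. Others were DESeq2, RLE scaling, omitting the count filter, a CPM filter (1 in 6 libraries), only the 6 libraries compared, limma on log2(FPKM + 1) and log2(FPKM + 0.1), an FPKM filter (1 in at least 3 libraries), leaving out each library and, chosen after seeing the data, the log2 library total as a covariate. Promoters came from RefSeq's GRCm38.p6 annotation and positions of overlapping exons from GENCODE M21. The tools were edgeR 4.0.16, DESeq2 1.42.0 and limma 3.58.1 under R 4.3.3, and pandas 2.3.3 and matplotlib 3.10.9 under Python 3.11.15. The genes with the pattern most like Serpinh1 are not reported here.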

Additional observations from a re-analysis of the deposited data

How the results depend on the processing

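None of the 9 genes reversed its direction between a call and another setting, and the Crtap rise over time was called in all 22 settings in each genotype. For genotype on day 1, where 1 of the 9 genes was called, DESeq2 called 2, the 6 libraries alone 3, the FPKM values 0, and leaving out 1 library gave 0 to 2. For genotype on day 3, where 1 was called, the 6 libraries alone and the FPKM values called 0, the depth covariate 2, and leaving out 1 library gave 0 to 1. For time in WT, where 5 were called, the 6 libraries alone called 3, the FPKM values 1, and leaving out 1 library gave 2 to 5. For time in Bcl3-/-, where 2 were called, the fit without a count filter called 1, and leaving out 1 library gave 1 to 3. For day 1 Bcl3-/- against day 3 WT, where 0 were called, DESeq2 and the filter of 1 CPM in 6 libraries called 1 each, and leaving out 1 library gave 0 to 1. For genotype by time 0 were called in every setting run. Over all genes that comparison called 150, against 476 by DESeq2, 232 without a count filter, 5 to 6 in log2(FPKM + 0.1) and log2(FPKM + 1) without a filter, 81 with the depth covariate and 3 (without day 1 Bcl3-/- library 3) to 488 (without day 1 WT library 3) with 1 library left out. The FPKM values without a filter called 1353 to 1473 genes for genotype on day 1, against 2510, 931 to 968 for genotype on day 3, against 1703, and 1292 to 1312 for day 1 Bcl3-/- against day 3 WT, against 2388. The 6 day 3 libraries alone called 874. Leaving out 1 library gave as few as 1270, 700 and 1210 calls in these comparisons. The cause of these differences was not tested. With the replicate block by culture, the paired fit, the counts of called genes among the 9 were 5 over time in WT and 2 over time in Bcl3-/- cultures, and a replicate block by label number left 1 call for genotype on each day. Neither changed a call of the 9 genes. With 3 cultures per group, the widest 95% intervals of a genotype difference were those of Ppib, -0.09 to 0.60 on day 1 and -0.04 to 0.65 on day 3, on the log2 scale.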
